A study of Mus musculus with 72 samples.

Results

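Of the 17857 reporter integrations listed for the 6 pools, 948 lie on mouse chromosome 14, and these are described here. They were chosen by the listed chromosome alone, in positions of the mm9 build, over all pools. The cells were EBRTcH3, a mouse embryonic stem cell line that expresses the tetracycline-controlled transactivator from the ROSA26 promoter. They were grown with leukemia inhibitory factor, the MEK inhibitor PD0325901 and the GSK-3 inhibitor CHIR99021. All groups share these cells, the medium and 1 reporter, a barcoded piggyBac construct with the mouse PGK (mPGK) promoter. After transfection, cells with low eGFP signal were sorted, grown for 5 days and divided into small pools, named mPGK-A to mPGK-F. Each pool was grown for 7 days and then split into 2 cultures, which were kept apart for 7 more days and serve as technical replicates. Chromosome 14 held 151 integrations in mPGK-A, 186 in mPGK-B, 132 in mPGK-C, 145 in mPGK-D, 163 in mPGK-E and 171 in mPGK-F, which is between 4.58% and 5.86% of a pool. The comparison is between these integrations and the 16909 on all other chromosomes of the same pools.

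In this assay, very many identical reporters that differ in a short barcode are placed at many sites of the genome at the same time. Inverse PCR ties each barcode to its site, the abundance of the barcode in RNA gives the reporter's transcription, and its abundance in genomic DNA gives the number of cells that carry it. The PGK promoter drives a housekeeping gene of glycolysis and is active in most cell types. A difference between sites is called a position effect. The piggyBac transposon inserts at TTAA sites and is known to favour open and transcribed chromatin, so that places with many integrations and places with few are not a random sample of the chromosome.

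The barcode is the sequence that identifies an integration, and the following 14 belong to the integrations that the account returns to. The first 5 are the highest and the next 5 the lowest of the 914 integrations of chromosome 14 with at least 100 DNA reads in each culture, and the last 4 form 2 pairs of close neighbours from different pools. Each line gives pool, mm9 position and strand, and letters are in lower case because no stretch of a barcode is singled out.
mPGK-A, 35172300, plus strand: ttctcttaccgggtac
mPGK-E, 51551190, minus strand: aaaaaccacattgcca
mPGK-D, 76892015, minus strand: atttgagaaaattata
mPGK-B, 55697332, minus strand: aacatttccgccgtct
mPGK-D, 22301016, minus strand: gcgatatagcataggt
mPGK-D, 112954591, plus strand: cctcctaagttaatct
mPGK-A, 28689066, plus strand: ttgggattctatatat
mPGK-A, 88342823, plus strand: tgaccccctaagcaga
mPGK-C, 18207355, plus strand: ttaaactgaccataag
mPGK-D, 109667354, minus strand: gtcggatatctgggga
mPGK-C, 70606164, plus strand: tatcactgtgatatat
mPGK-A, 70606815, minus strand: caacattcgcccacga
mPGK-B, 99733981, minus strand: taaaacaggatgtacc
mPGK-C, 99734022, plus strand: aaagtccatcgcccca

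Reporters on chromosome 14 were on average 1.31-fold lower than those elsewhere, and the level varied along the chromosome. Its 4 lowest stretches of 10 Mb were neighbours in the distal part, with a short high island inside them and another in the stretch before them. Expression is the log2 ratio of a barcode's share of RNA reads to its share of DNA reads in a pool, with 0.5 RNA reads added, averaged over both cultures and given relative to the median of the pool. It averaged -0.55 ± 2.58 on chromosome 14 and -0.16 ± 2.42 on all other chromosomes (SD over 948 and 16909 integrations). By pool, chromosome 14 minus the other chromosomes came to -0.22 in mPGK-A, -0.43 in mPGK-B, -0.53 in mPGK-C, -0.26 in mPGK-D, -0.47 in mPGK-E and -0.42 in mPGK-F. It was therefore lower in 6 of 6 pools, by 0.39 ± 0.064 on the log2 scale (SE, n = 6 pools, limma adjusted p = 0.00057). The exact two-sided sign-flip test over the pools gave p = 0.03125, the smallest that 6 pools allow. Lower levels are common among chromosomes: 8 of the 21, or 38.1%, passed the same test as lower. The chromosome was picked for its low mean in these same data, so this difference is the starting point and not a separate finding.

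The centre of the distribution was lower, with a median level of -0.36 on chromosome 14 and 0.02 on the other chromosomes. The lower quartile was -2.05 against -1.57 and the upper one 1.15 against 1.47. At the extremes, the shift was in the low tail more than in the high one. Integrations more than 16-fold below their pool's median made up 8.54% of chromosome 14 (81 integrations) and 6.36% of the other chromosomes. Those more than 16-fold above it made up 2.74% of chromosome 14 (26 integrations) and 2.45% of the other chromosomes. No RNA read was found for 15 integrations of chromosome 14, or 1.58%, against 0.999% elsewhere. With edgeR's quasi-likelihood test within each pool, 363 integrations of chromosome 14 (38.3%) were lower than the median of their pool at an adjusted p under 0.05, where 33.7% of all integrations were, and 306 (32.3%) were higher, where 36.9% of all were. By pool, the share called lower was 35.8% on chromosome 14 against 33.7% on the other chromosomes in mPGK-A, 39.2% against 32.5% in mPGK-B, 43.2% against 34.0% in mPGK-C and 44.4% against 34.3% in mPGK-F. It was nearly the same in mPGK-D, at 33.1% against 33.0%, and in mPGK-E, at 33.7% against 33.3%. A reporter of chromosome 14 had a median of 1596.5 DNA reads and 432 RNA reads, and one elsewhere had 1673 DNA reads and 561 RNA reads, both summed over the cultures.

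In steps of 10 Mb, most of the proximal part stood near the pool median. The stretches chr14:20000001-30000000, chr14:30000001-40000000, chr14:40000001-50000000 and chr14:50000001-60000000 had means of 0.05, 0.36, 0.46 and 0.43. The next pair, chr14:60000001-70000000 and chr14:70000001-80000000, had means of -0.15 and -0.13. Pools fell on both sides of 0 in each of these 6 stretches. The stretch before them, chr14:10000001-20000000, averaged -0.91 with all 6 pools below 0.

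From 80 Mb on the level was much lower. In chr14:80000001-90000000 the 89 integrations averaged -2.19, and pool means ran from -2.55 in mPGK-E to -1.33 in mPGK-C. In chr14:90000001-100000000 the 55 integrations averaged -1.85, with pool means from -3.36 in mPGK-D to -0.70 in mPGK-B. In chr14:100000001-110000000 the 74 integrations averaged -1.49, with pool means from -2.79 in mPGK-D to -0.57 in mPGK-C. In chr14:110000001-120000000 the 32 integrations averaged -2.44, with pool means from -3.81 in mPGK-D to -1.10 in mPGK-A. All 6 pools were below 0 in each of the 4. Counted from the lowest of the 257 such stretches of the genome with at least 20 integrations, they ranked 5, 13, 20 and 2. After them, chr14:120000001-130000000 came back to -0.39.

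**Figure D1:**
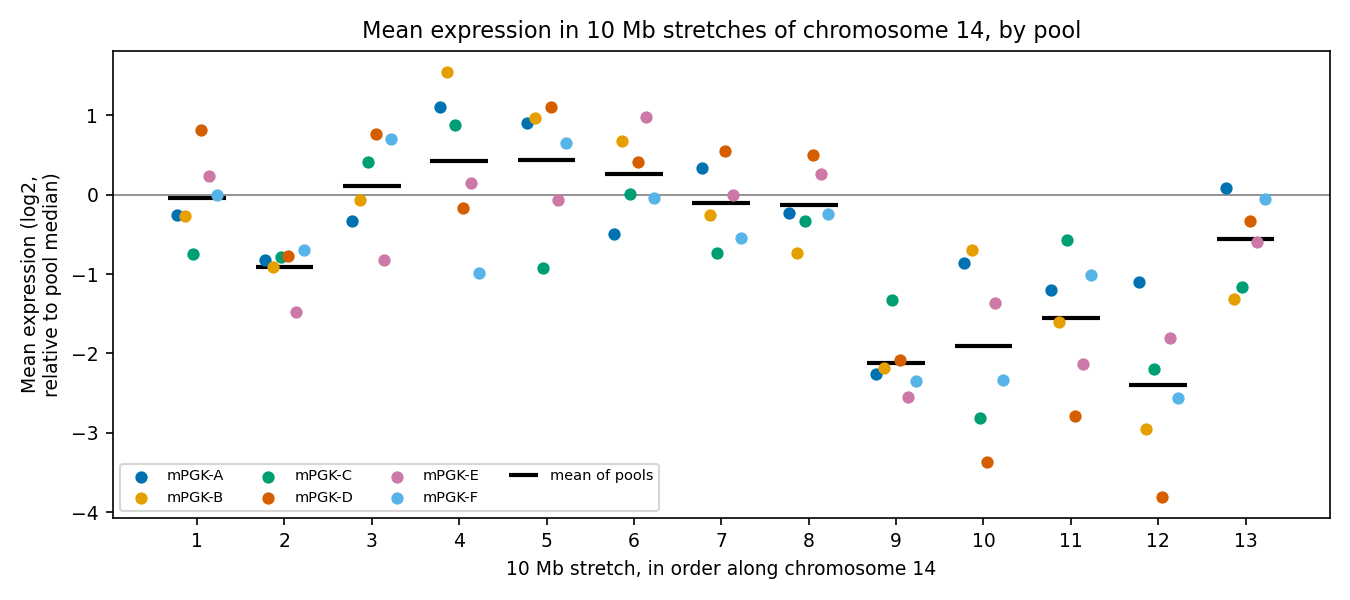
Mean expression (log2, relative to the pool median) in 13 successive stretches of 10 Mb along chromosome 14, numbered from the proximal end. Each dot is 1 of the 6 pools and each bar the mean of the pools. In stretches 9 to 12 every pool lies below 0, while in stretches 3 to 8 pools lie on both sides of it.

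Taken as 1 block, bounded after the values were seen and so given with no test, the 38 Mb of chr14:80000001-118000000 held 243 integrations, 25.6% of the chromosome's total, with a mean of -1.99 ± 2.79 (SD). It held 48 of the 81 integrations of chromosome 14 that were more than 16-fold below their pool's median and 8 of the 15 without RNA reads. The other 705 integrations of chromosome 14 averaged -0.06, and all other chromosomes, with their own low stretches kept in, averaged -0.16. Means of single pools in the block ran from -2.80 in mPGK-D to -1.58 in mPGK-A, and in the remainder of chromosome 14 from -0.36 in mPGK-C to 0.38 in mPGK-D. Since the block was cut out for being low, a higher remainder follows from the choice and is no evidence that the deficit is confined to the block.

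**Figure D2:**
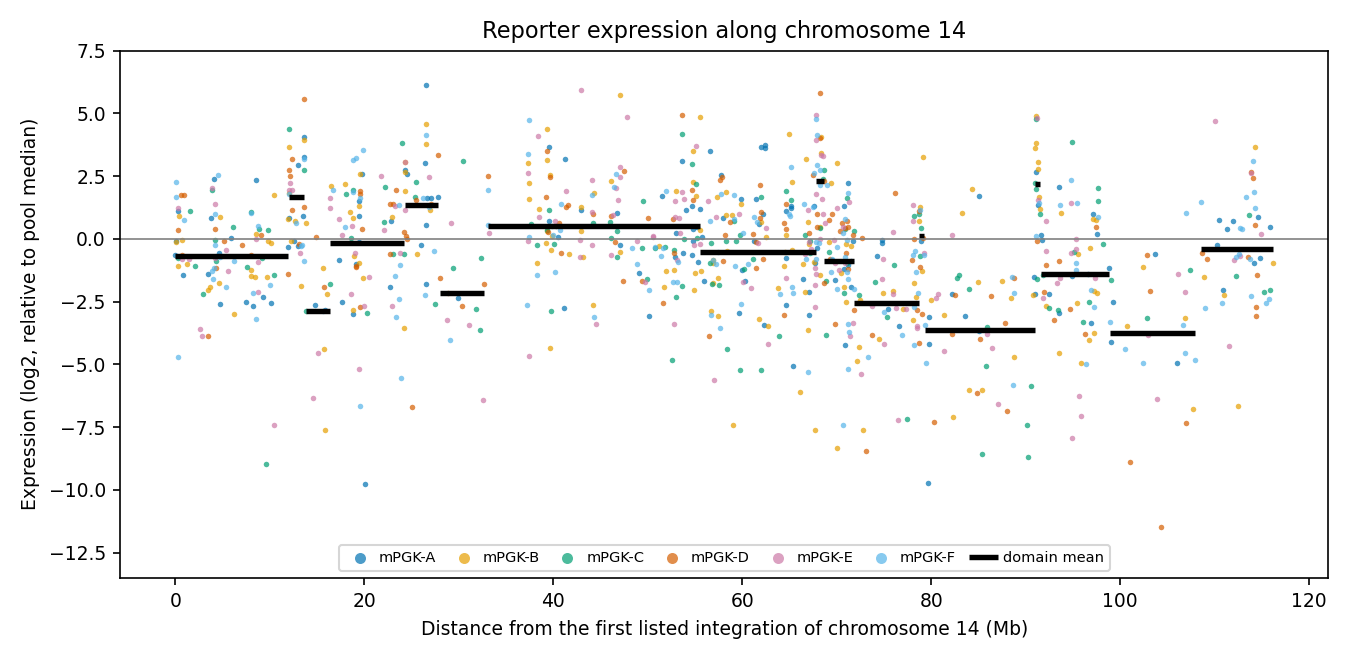
Expression of the 948 integrations (dots, coloured by pool; log2, relative to the pool median) against distance from the first listed integration of chromosome 14, in Mb. Black lines are the means of 17 domains found from the values. Low domains dominate the distal part, and the 2 shortest high domains, 767 and 527 kb long, stand as narrow columns of dots.

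For a finer view, windows of 2 Mb with at least 5 integrations in at least 3 pools were set against all other integrations of the same pools, and limma was run over the pools with adjustment over all 1106 such windows of the genome. Of 54 windows tested on chromosome 14, 11 (20.4%) were lower at an adjusted p under 0.05, where 9.86% of all windows were, and 5 (9.26%) were higher, where 8.05% of all windows were. At an unadjusted p under 0.05 the counts were 16 lower and 6 higher. The chromosome was picked for its low mean in these same data, so an excess of lower windows follows from the choice and is no separate evidence. The same holds for the share of single integrations called lower. All 11 lower windows started between 80000001 and 114000001, and 8 of them started between 80000001 and 98000000. They held 150 integrations, a median of 10 a window, against a median of 17 in tested windows that passed in neither direction. Some windows that did not pass were lower than some that did. Proximal to the 11, chr14:18000001-20000000 averaged -2.18 over 10 integrations (limma adjusted p = 0.06). Distally, chr14:90000001-92000000 averaged -2.14 (0.057) and chr14:116000001-118000000 averaged -2.12 (0.07).

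Too few integrations for a test, 3 each, lay in chr14:112000001-114000000 and chr14:108000001-110000000, with means of -6.15 and -5.58. Of the tested windows, the lowest was chr14:94000001-96000000, whose 8 integrations averaged -5.01 with none above the pool median. Its pool means were -6.00 in mPGK-B, -5.71 in mPGK-C, -2.28 in mPGK-D and -4.90 in mPGK-E. It was lower than the other integrations of those pools by 4.82 ± 0.73 on the log2 scale (SE, n = 4 pools), or 28.2-fold (limma adjusted p = 0.00012). Next came chr14:88000001-90000000, where 10 integrations averaged -4.38, all below the pool median. Its pool means were -5.67 in mPGK-A, -2.73 in mPGK-B, -7.31 in mPGK-D, -3.01 in mPGK-E and -4.95 in mPGK-F, and the deficit was 18.5-fold (limma adjusted p = 0.00019). These folds lean on reads near 0: with 5 RNA reads added instead of 0.5, they were 13.5-fold and 10.5-fold, and both windows still passed.

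The other lower windows were 1.92-fold to 8.84-fold below the remaining integrations. In chr14:96000001-98000000, the 9 integrations averaged -3.33 and came from mPGK-B, mPGK-D and mPGK-F only. In chr14:114000001-116000000, 8 integrations averaged -3.23, an 8.26-fold deficit that was 5.08-fold with 5 RNA reads added. In chr14:80000001-82000000, where the low part begins, 19 integrations averaged -2.88 and all 6 pools were below 0, from -4.19 in mPGK-E to -0.96 in mPGK-A. Similar in depth were chr14:110000001-112000000, chr14:104000001-106000000 and chr14:92000001-94000000, with means of -2.62, -2.57 and -2.54. The remaining ones were chr14:84000001-86000000 with a mean of -2.46, chr14:82000001-84000000 with -2.06, and chr14:86000001-88000000, the densest of the 11 with 35 integrations and a mean of -1.13.

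Some of these calls depended on single pools or cultures. The windows starting at 80000001, 88000001, 94000001, 104000001 and 114000001 passed whichever pool or culture was left out. The window from 86000001 did not pass without mPGK-A (limma adjusted p = 0.054), mPGK-C (0.071), mPGK-D (0.12), mPGK-E (0.077) or mPGK-F (0.19), nor without the culture numbered 2 (0.1). That from 82000001 did not pass without mPGK-B (0.079), mPGK-D (0.059), mPGK-E (0.11), mPGK-F (0.055) or culture 2 (0.1). The window from 110000001 did not pass without mPGK-C (0.086), mPGK-E (0.12), mPGK-F (0.17) or culture 2 (0.19), and could not be tested without mPGK-D. For the window from 92000001 leaving out mPGK-D gave 0.15, and for that from 84000001 leaving out mPGK-E gave 0.09. The window from 96000001 could not be tested without any of its 3 pools.

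The 5 windows that stayed high all lay proximal to the low block. The highest was chr14:34000001-36000000, whose 21 integrations averaged 1.60, and its pool means were 1.57 in mPGK-A, 2.23 in mPGK-B, 1.98 in mPGK-C, 1.46 in mPGK-D, 2.49 in mPGK-E and 0.87 in mPGK-F. All 6 pools were above the rest, the excess was 3.42-fold (limma adjusted p = 0.0043), and the call held with any pool or culture left out. The window chr14:54000001-56000000 averaged 1.23 over 19 integrations, chr14:20000001-22000000 averaged 1.13 over 25, chr14:62000001-64000000 averaged 1.12 over 28 from 5 pools, and chr14:76000001-78000000 averaged 0.96 over 49. These 4 were 2.22-fold to 2.67-fold above the remaining integrations. In the window from 76000001, pool means were 1.59 in mPGK-D, 1.04 in mPGK-E and 1.98 in mPGK-F. The other pools there stood near the pool median, at 0.006 in mPGK-A, -0.31 in mPGK-B and -0.08 in mPGK-C. Together the 5 held 142 integrations, a median of 25 a window, against 10 in the lower windows.

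Of the high calls, those at 20000001, 54000001, 62000001 and 76000001 depended on single pools. At 20000001 the limma adjusted p was 0.077 without mPGK-D and 0.068 without mPGK-E. At 54000001 it was 0.12 without mPGK-B, 0.15 without mPGK-E, 0.091 without mPGK-F and 0.062 without culture 1. At 62000001 it was 0.051 without mPGK-C, 0.066 without mPGK-D and 0.07 without mPGK-E, and at 76000001 it was 0.053 without mPGK-D, 0.067 without mPGK-E and 0.11 without mPGK-F. Among the 8 highest windows by mean, 3 did not pass: chr14:44000001-46000000 with a mean of 1.27 over 5 integrations, chr14:46000001-48000000 with 1.03 over 17, and chr14:50000001-52000000 with 0.89 over 9.

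**Figure D3:**
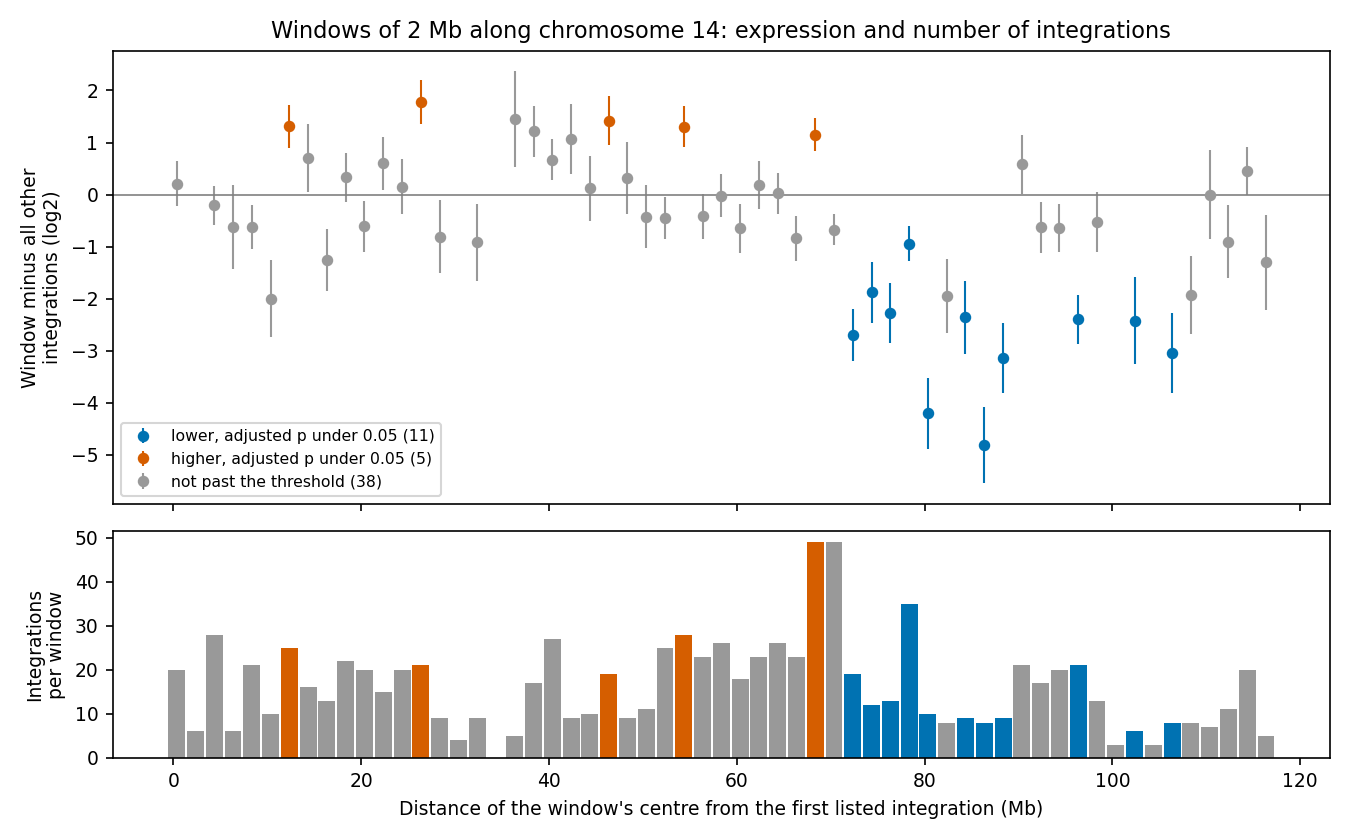
Upper panel: 54 tested windows of 2 Mb, each as the difference from all other integrations of the same pools (log2, dot) with its SE (line), against the distance of its centre from the first listed integration in Mb; blue windows were lower, orange ones higher and grey ones not past an adjusted p of 0.05. Lower panel: integrations per window, in the same colours. The 11 lower windows lie in the distal part and the 2 tallest bars, 49 integrations each, stand just before them.

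Steps between neighbouring windows were tested in pools that had integrations on both sides. Of 46 borders on chromosome 14, 5 passed, where 4.94% of the 931 borders of the genome did, and 11 had an unadjusted p under 0.05. The largest step was between the windows beside 98000000, where the distal window averaged 0.39 and the proximal one -3.33 over all their pools. Only mPGK-B, mPGK-D and mPGK-F had integrations in both. In these the distal window was 26.1-fold higher, in 3 of 3 pools (limma adjusted p = 0.017). From mPGK-D the distal window held only the integration at 99843942 (-0.09), and from mPGK-F only that at 99766966 (0.11). Both stood near the pool median. mPGK-C, at -2.07 in the distal window, had none in the proximal one. The level did not rise at the border itself. Integrations of the distal window up to 99619510 were below the pool median, and the domains described below place the rise between 99619510 and 99645057. At 20000000 the level was 11.4-fold higher in the distal window than in the proximal one, in 5 of 5 pools (limma adjusted p = 0.037). That border lies in the gap chr14:19103947-20574551, and the domains place the rise between 20592796 and 20619327. On the log2 scale this step was 2.61 without mPGK-E and 2.85 without mPGK-C. In the proximal window mPGK-E had only the integration at 19044679 (-7.40, no RNA read). mPGK-C had only that at 20685313 (4.37) in the distal one. At 88000000 the level was 9.72-fold lower in the distal window, in 5 of 5 pools (limma adjusted p = 0.029). These sizes lean on reads near 0. With 5 RNA reads added, the steps at 98000000, 20000000 and 88000000 were 4.305, 2.885 and -2.535 on the log2 scale, against 4.71, 3.50 and -3.28. All 3 still passed.

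A pair of falls lay near the start of the low block, and only that at 80000000 led into it. At 78000000 the distal window averaged -0.86 and the proximal one 0.96, and at 80000000 the distal one averaged -2.88 and the proximal one -0.86. Both falls were seen in 6 of 6 pools (limma adjusted p = 0.024 and 0.034). The fall at 78000000 followed a rise at 76000000, where the proximal window averaged -1.02 and the distal one 0.96. That rise was seen in 6 of 6 pools but did not pass (limma adjusted p = 0.075). The window between these borders holds the 767 kb high domain described below, and the level returned to near that before it. Other large steps did not pass, namely a fall of 2.68 on the log2 scale at 36000000 (limma adjusted p = 0.097) and a rise of 2.38 at 90000000 (limma adjusted p = 0.25). Steps were the least stable calls: without mPGK-D none of 42 borders passed with limma, although 9 had an unadjusted p under 0.05. Without mPGK-B 1 passed, without mPGK-A or mPGK-F 3 passed, and without mPGK-C or mPGK-E 4 passed. The step at 98000000 could not be tested without mPGK-B, mPGK-D or mPGK-F. The step at 20000000 did not pass without mPGK-A (limma adjusted p = 0.068), mPGK-C (0.14), mPGK-D (0.11) or mPGK-E (0.13). That at 78000000 was lost without mPGK-B (0.077), mPGK-D (0.11) or mPGK-F (0.24), and its size was -1.07 without mPGK-F. That at 80000000 was lost without mPGK-B (0.1), mPGK-D (0.14) or mPGK-E (0.095), and that at 88000000 without mPGK-A (0.079), mPGK-B (0.085), mPGK-D (0.13) or culture 1 (0.074).

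Domains were then delimited from the values themselves, by dividing the chromosome into runs of at least 5 integrations with different means, so their means are descriptions and carry no test. There were 17 domains, with lengths between 477 kb and 22.5 Mb and a median of 6.82 Mb. Low domains, with a mean at or below -1, numbered 6 and spanned 42.0 Mb with 224 integrations, or 5.34 per Mb. High domains, with a mean at or above 1, numbered 4 and spanned 6.52 Mb with 112 integrations, or 17.2 per Mb. The 7 in between spanned 65.8 Mb with 612 integrations, or 9.30 per Mb. Of the chromosome's 0.39 deficit on the log2 scale, low domains contributed -0.58, high domains 0.23 and the others -0.04. Low and high domains were defined by their means, so the signs of their contributions follow from the definition. The other chromosomes kept their own low domains in the comparison, so the split does not show that low domains account for the deficit. Sums over domains hide exceptions: the low domain chr14:22419889-25001395 spanned 2.58 Mb, less than the high domain chr14:32917300-36461014 with 3.54 Mb, which held only 9.59 integrations per Mb.

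The deepest low domain was chr14:107512793-116595259, where 27 integrations averaged -3.74 ± 2.73 (SD) and 26 were below the pool median. Similar in depth was chr14:87981144-99619510, with 51 integrations at -3.63 ± 2.57, of which 19 were more than 16-fold below the pool median. Its lowest pool mean was -4.90, in mPGK-C, and its highest -2.85, in mPGK-B. Before it, chr14:80488454-87309135 held 54 integrations at -2.54 ± 2.20, and after it chr14:100255779-107447039 held 63 at -1.39 ± 2.30. In each of these 4, all 6 pools had means below 0. With 5 RNA reads added, the means of the deepest 2 were -2.96 and -2.86.

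The other low domains lay outside the distal block and were smaller. In chr14:22419889-25001395, 14 integrations averaged -2.88 ± 2.25, and pool means were below 0 in 6 of 6 pools. In chr14:36664380-41332072, 15 integrations from 5 pools averaged -2.14 ± 2.17. Each followed directly on a high domain: chr14:20619327-22305695 with 32 integrations at 1.65 ± 1.78, positive in all 6 pools, and chr14:32917300-36461014 with 34 at 1.37 ± 2.36, positive in 5. The second of these pairs was unstable: its edges at 32890421, 36461014 and 41332072 were found again in 1, 2 and 3 of 6 runs with 1 pool left out.

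The proximal and central part was otherwise made of long domains near 0. The first, chr14:8637730-20592796, held 94 integrations at -0.69, and chr14:25038310-32890421 held 72 at -0.16. The longest, chr14:41677707-64140156, covered 22.5 Mb with 167 integrations at 0.53. It was followed by chr14:64147423-76448838 with 149 at -0.52 and, beyond a short island, by chr14:77309876-80455151 with 67 at -0.88. The last domain, chr14:117207430-124845369, held 48 integrations at -0.40.

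The 2 shortest high domains stood out as narrow islands. In chr14:99645057-100171981, 527 kb that separate the low domains on either side, 19 integrations averaged 2.18 ± 1.76, and 17 of them were above the pool median. Pool means there were 2.02 in mPGK-A, 3.02 in mPGK-B, 1.69 in mPGK-C, -0.09 in mPGK-D, 3.18 in mPGK-E and 0.78 in mPGK-F, so that all pools but mPGK-D, with 1 integration, were positive. On its proximal side the domain mean was higher by 5.81 on the log2 scale than in the domain before it, across 25.5 kb, the largest step of the 16 edges. The next largest was at the distal end of the high domain chr14:20619327-22305695, with -4.54. The first 3 integrations inside this edge, at 99645057, 99668788 and 99703808, had levels of 3.64, 2.25 and 3.84 and belong to mPGK-B and mPGK-C. The last 3 outside it, at 99381357, 99460337 and 99619510, had levels of -2.25, -1.50 and -2.18 and belong to mPGK-B and mPGK-A.

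The other island was chr14:76481137-77248419, where 27 integrations within 767 kb averaged 2.29 ± 1.85 and 24 were above the pool median. Pool means were -0.35 in mPGK-A with 1 integration, 1.63 in mPGK-B, 1.86 in mPGK-C, 2.72 in mPGK-D, 2.50 in mPGK-E and 2.78 in mPGK-F. Its neighbours on both sides stood at -0.52 and -0.88, so it rose from a level near the pool median and not from a low domain. Another short domain, chr14:87356988-87834093, divided the low block at 477 kb length with 15 integrations at 0.11, 3 pools above and 3 below 0. It reached only the pool median, yet lay between low domains at -2.54 and -3.63.

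**Figure D4:**
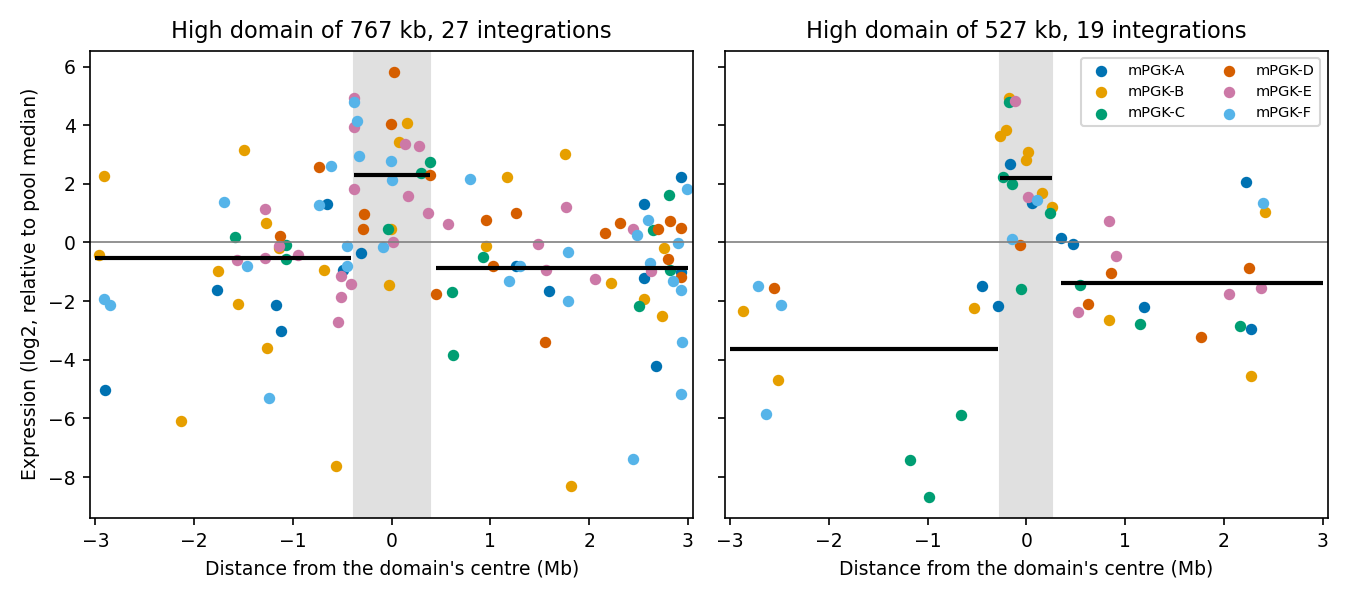
Expression (log2, relative to the pool median) of integrations within 3 Mb of the centre of the 767 kb and 527 kb high domains, against distance from the centre in Mb. Dots are integrations coloured by pool, grey bands mark the domains and black lines are domain means. The 27 and 19 integrations inside the bands lie mostly above 0, and the mean beside the 527 kb domain is -3.63 on the proximal and -1.39 on the distal side.

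The edges were located to within the spacing of the integrations. The 16 edges fell in intervals of 7.27 kb to 612 kb without an integration, with a median of 54.7 kb. When the division was repeated without each pool in turn, 5 edges were found again within 250 kb in all 6 runs, among them both sides of the 527 kb island and the edge between 87834093 and 87981144. In at least 5 runs, 9 edges were found. Those found in 3 or fewer numbered 4: the edges at 32890421, 36461014, 41332072 and 64140156. The first of them was missed in every run but that without mPGK-D, and the last in every run but that without mPGK-F. Compared with other chromosomes, the share of integrations in low domains, 23.6%, ranked 5 of 20, and the number of domains per 100 integrations ranked 10.

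Whether low and high domains hold in integrations that did not define them was tested by finding domains on 5 pools and reading the level in the sixth. The left-out pools averaged -2.20 ± 0.31 in low domains and 1.32 ± 0.65 in high domains (SD, n = 6 pools). The difference was -2.49 in mPGK-C, -2.71 in mPGK-F, -3.49 in mPGK-D, -3.68 in mPGK-A, -4.06 in mPGK-B and -4.68 in mPGK-E. Low domains were therefore lower in 6 of 6 left-out pools, 11.5-fold on average (exact two-sided sign-flip test, p = 0.03125, the smallest possible). The number of low domains varied between 5 and 7 and that of high ones between 3 and 4 across the runs. The runs share pools in the sets that define domains, so the 6 differences are not fully independent.

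Chromosome 14 was more densely filled than most, which goes the other way from its level. On chromosome 14 and elsewhere, integrations with more neighbours were higher: expression and the number of other integrations within 100 kb had Pearson r = 0.35 and Spearman rho = 0.36 over the 948 integrations, which share their sites' neighbours, and 0.32 and 0.34 elsewhere. With no neighbour, 155 integrations of chromosome 14 averaged -2.03, against -1.33 on other chromosomes. With 7 or more neighbours, 134 averaged 0.91, against 1.49 on other chromosomes. In the 3 classes between, chromosome 14 averaged -1.41, -0.43 and 0.15, against -0.70, 0.06 and 0.70 elsewhere. Compared at equal density, chromosome 14 was lower by 0.59 ± 0.12 on the log2 scale (SD, n = 6 pools), or 1.50-fold, with a negative difference in 6 of 6 pools that was largest at -0.72 (mPGK-B) and smallest at -0.43 (mPGK-A) (exact two-sided sign-flip test, p = 0.03125, the smallest possible). This comparison uses the same levels and pools as the one that singled out the chromosome, so it shows that the lower level was also present at matched density and is not separate evidence for it.

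**Figure D5:**
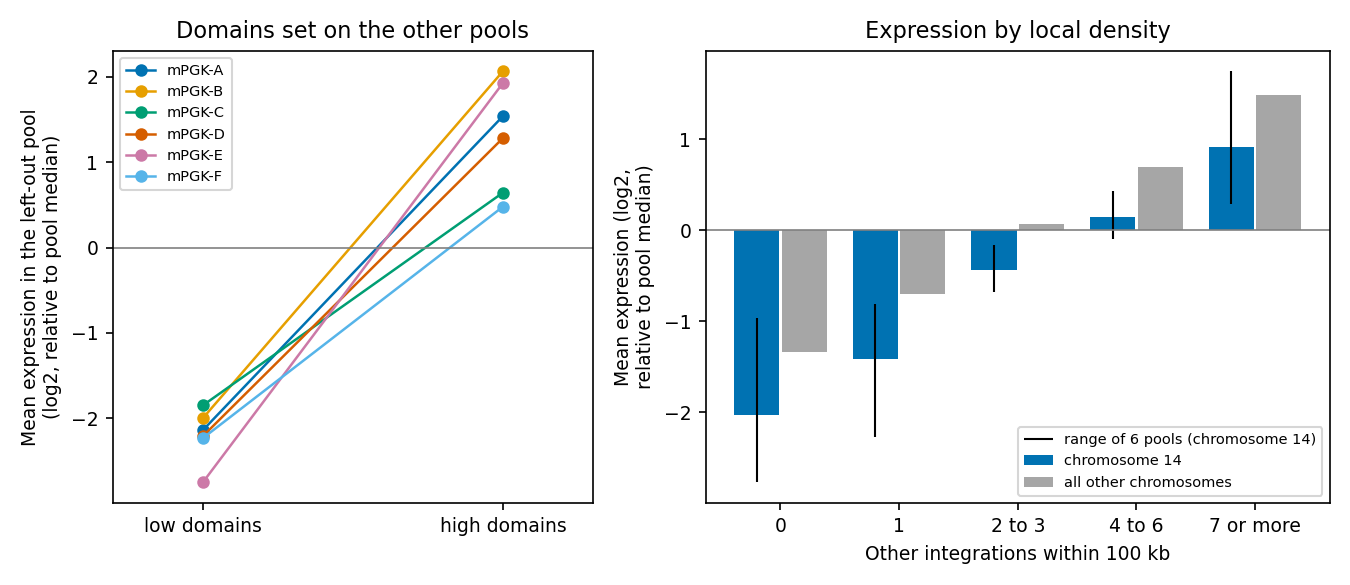
Left: mean expression (log2, relative to the pool median) of each left-out pool in low and high domains set on the other 5 pools; lines join values of a pool, and all 6 rise. Right: mean expression by number of other integrations within 100 kb, for chromosome 14 (blue, with the range of the 6 pools) and all other chromosomes (grey); bars start at 0, and the chromosome 14 bar is the lower one in all 5 classes.

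Integrations with 7 or more others within 100 kb made up 14.1% of chromosome 14 and 4.49% of all other chromosomes, and the next highest share, on chromosome 15, was 9.23%. These 134 integrations fell into 17 runs, of which 12 had at least 5 integrations, and the mean was above 0 in 15 of the 17. Among those 15 are runs of a single integration, at 27461005 and 52851100. Also among them is chr14:73224917-73295444, whose 8 integrations averaged only 0.003. The largest run was an exception: chr14:79366415-79860005 held 26 integrations from all 6 pools, at most 8 of them from mPGK-F, and averaged -0.74 ± 1.81 (SD) with 9 above the pool median. It lies in the domain just before the low block. The other with a mean below 0 was chr14:86700585-86796225, 8 integrations from 5 pools at -0.97. Among high runs, chr14:22220175-22305695 had 8 integrations at 2.90, chr14:99668788-99855525 had 10 from 6 pools at 2.37, and chr14:20592796-20698339 had 8 from 6 pools at 2.11. By window, the most integrations were in chr14:76000001-78000000 and chr14:78000001-80000000 with 49 each, then chr14:86000001-88000000 with 35, and chr14:12000001-14000000 and chr14:62000001-64000000 with 28 each.

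The first listed integration of chromosome 14 was at 8637730, whereas the first on the other autosomes lay between 3035422 and 4054232. No integration is therefore listed in the most proximal part of chromosome 14, which is not counted among the gaps between integrations. Of those gaps, 11 of 947, or 1.16%, were over 1 Mb, against 1.17% on other autosomes, and the median gap was 53.1 kb against 64.2 kb. The widest between integrations was chr14:41795628-45864111, 4.07 Mb, and 3 wider ones were found on other autosomes, up to 8.03 Mb. The 5 integrations before it averaged 0.70 and the 5 after it 1.27, while the window chr14:40000001-42000000, which ends in it, averaged -1.12 over 9 and holds the end of a low domain. The next were chr14:112954592-114614148 with 1.66 Mb, chr14:53176120-54685415 with 1.51 Mb, chr14:19103947-20574551 with 1.47 Mb and chr14:109667355-111074867 with 1.41 Mb. Of these, the first and the last lie in the deepest low domain, where the 5 integrations on either side averaged between -4.87 and -2.74. Lack of insertions and lack of mappable sequence cannot be told apart in such a list.

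Single integrations ranged far around these means. The highest, at 35172300 in mPGK-A, had 13770 and 16725 RNA reads on 727 and 551 DNA reads in the 2 cultures, 70.1-fold above the pool median, and lies in the high window from 34000001. The next, at 51551190 in mPGK-E, 76892015 in mPGK-D, 55697332 in mPGK-B and 22301016 in mPGK-D, were 62.0-fold, 56.3-fold, 53.8-fold and 47.2-fold above it. At the other end, the integration at 112954591 in mPGK-D had no RNA read on 4597 and 4578 DNA reads, which puts it at least 945-fold below the pool median with a floor of 3 reads over both cultures. It borders the second widest gap and belongs to the deepest low domain. Those at 88342823 in mPGK-A and 18207355 in mPGK-C, also without RNA reads, were at least 284-fold and 165-fold lower. The integrations at 28689066 in mPGK-A, with 1 RNA read in all, and at 109667354 in mPGK-D, with 3, had levels of -9.75 and -8.89.

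Some reporters went against their domain. In low domains, 17 of 224 integrations were more than 2-fold above their pool's median, and edgeR called 16 of them higher. The highest of these was at 103500401 in mPGK-C with a level of 3.86, in the shallowest low domain. In high domains, 7 of 112 were more than 2-fold below the median, and 6 of them were called lower. The lowest was at 33707956 in mPGK-D with a level of -6.68 on 6749 DNA reads.

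Reporters on the plus and minus strands of chromosome 14, 478 and 470 in number, averaged -0.51 and -0.59. The difference by pool was 0.05 ± 0.46 (SD, n = 6), from -0.48 in mPGK-F to 0.79 in mPGK-B, and plus was higher in 4 of 6 pools (exact two-sided sign-flip test, p = 0.8125). A strand difference was therefore not detectable at the spread between pools.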

How the data were processed

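The members, lists and thresholds were chosen with earlier results of these data known. The deposited table gives, per pool, barcode, mm9 position and strand, raw read counts of DNA and RNA in each of 2 cultures, made by the authors from 72 libraries (2 PCRs per culture and kind). Bowtie2 2.0 and mm9 were used, per the submitters' processing notes. Not given in the sources used here are the way PCRs were combined, the rule for keeping barcodes, and whether positions count from 0 or 1, which leaves each position uncertain by 1 base. Totals over listed barcodes were 3386477 to 3693449 DNA reads and 2880244 to 3508366 RNA reads per pool and culture. Reads carry no molecular identifiers, so they are not independent molecules.

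From these counts, expression was computed as given above, and pools served as samples, since integrations of a pool are not replicates of a condition. The labels do not say whether pools come from separate transfections, so p-values of limma and of the sign-flip tests measure the spread between pools only. Those of edgeR, fitted within each pool, measure the spread between its 2 cultures and not that between pools. limma 3.58.1 was fitted over the pools, weighted by integrations, with Benjamini-Hochberg adjustment over all chromosomes, windows or borders of the genome. Single integrations were tested with edgeR 4.0.16 (quasi-likelihood, TMM, shifted to the pool median), with DESeq2 1.42.0 as an alternative. Domains came from least-squares partitioning with a penalty of 2 times the noise variance times the logarithm of the number of integrations. Named are all windows past the threshold, the 8 highest and 8 lowest by mean of those with at least 5 integrations, and all domains. Also named are the 5 largest steps, widest gaps and fullest windows, the 5 highest and 5 lowest integrations, and the 3 most and least alike pairs. The islands' edge integrations, the integrations that go against their domain, and the runs of dense integrations were chosen after values were seen. Scripts were checked on simulated data. Cultures numbered alike did not deviate together across RNA and DNA (correlations of -0.0021 to 0.0575). Of the barcodes, 506 are listed in several pools, always at different positions, and 54 integrations of chromosome 14 carry one. No genome of the mm9 build was used, so genes at the positions are not named.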

Additional observations from a re-analysis of the deposited data

Results flagged for a closer look

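In 32 groups of 4 to 6 pool means, 4 single values stood far from the others of their group, by the gap to the nearest pool relative to the whole range. Chance flags about 1 in 20 groups of values with equal spread, and pool means here rest on unequal numbers of integrations, 1 or 2 for 3 of the 4 values, so that rate does not carry over to them. In chr14:20000001-22000000, mPGK-C had a mean of 4.368 from 1 integration, where the nearest pool was at 1.386. In chr14:84000001-86000000, mPGK-D had 1.819 from 1 integration, where the other 5 pools were at or below -2.063. In chr14:92000001-94000000, mPGK-D had -5.065 from 2 integrations, and the other 3 pools lay between -1.988 and -1.669. In chr14:10000001-20000000, mPGK-E had -1.476, and the other 5 pools lay between -0.9085 and -0.7024. Their causes were not tested.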

How the results depend on the processing

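The chromosome 14 difference kept its direction and passed in all 14 alternatives, from -0.42 to -0.33, and the difference at equal density (-0.62 to -0.44) and the contrast of domains in left-out pools (-4.07 to -3.16) kept their direction in theirs. With 5 pools the exact test cannot go below 0.0625, so these were judged by their size against the spread between pools. The strand difference ran from -0.10 to 0.16 and passed in none of its 11 alternatives. Counts of integrations called ranged from 343 to 416 lower and from 267 to 308 higher. With the replicate block by culture number, 357 were lower and 308 higher, and the block moved no count by more than 1.5 times. Windows were less stable. The lower ones numbered 6 without mPGK-D, 7 without mPGK-F and 5 when at least 10 integrations were required, which leaves 39 windows tested. The higher ones numbered 2 without mPGK-D, 1 without mPGK-E, 3 without mPGK-F, 1 with no weights, 2 with 4 Mb windows and 3 with windows shifted by 1 Mb. With no weights, the windows from 20000001, 54000001, 62000001, 76000001, 84000001, 86000001 and 92000001 did not pass, and without the lowest 10% of DNA counts those from 54000001, 82000001, 86000001 and 110000001 did not. Steps numbered 3 without mPGK-A, 1 without mPGK-B, 0 without mPGK-D (9 at an unadjusted p under 0.05 with limma), 3 without mPGK-F, 0 with no weights (12 at an unadjusted p) and 1 with 1 Mb windows. Causes were not tested. No barcode is listed at the same position in several pools, so the planned removal of such repeats changed nothing. Using each barcode of several pools once was added after seeing the data and gave 10 lower windows. edgeR could not be fitted without 1 culture, which leaves no residual degrees of freedom. Depth limits the lowest values: below a few RNA reads, levels depend on the reads added.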

Other observations

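On chromosome 14, 44 pairs of integrations from different pools lay within 1 kb of each other, all with different barcodes. Their levels differed by a median of 1.71 on the log2 scale, against 2.32 over all pairs of the chromosome, and 36.4% of the 44 were within 2-fold, against 23.0% of all pairs. Integrations take part in several pairs, so no test is given. The 3 most alike were 87833434 and 87834093 (mPGK-F at -0.64, mPGK-E at -0.57), 27807934 and 27807947 (mPGK-D at -1.07, mPGK-A at -0.99), and 99733981 and 99734022. The last lie in the 527 kb island, 41 bp apart on opposite strands, with mPGK-B at 4.91 and mPGK-C at 4.80.

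Of the same 44 pairs, 8 were more than 16-fold apart. The widest was 70606164 in mPGK-C at -5.21 and 70606815 in mPGK-A at 3.65, 651 bp apart and 465-fold different. Both cultures showed it, with -4.92 and -5.53 in mPGK-C and 3.83 and 3.43 in mPGK-A. The next were 86785426 in mPGK-C at 0.92 with 86785488 in mPGK-F at -4.22, and 46110971 in mPGK-E at -4.66 with 46110972 in mPGK-F at 0.08. In this last pair the mPGK-E cultures differed, at -1.22 and -8.13. It is 1 of 6 pairs of different pools listed 1 bp apart, in all 6 of which the left integration is on the minus and the right one on the plus strand. In a second such pair, 86726282 in mPGK-E stood at 1.35 and 86726283 in mPGK-B at -3.24, and in another, 73246161 in mPGK-C stood at 1.90 and 73246162 in mPGK-D at 1.40.

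Over longer distances the correlation of levels over pairs was lower, though not steadily so. It was 0.38 within 1 kb (52 pairs, with 12 of 18 other autosomes higher), 0.55 at 1 to 5 kb (85 pairs, 2 higher) and 0.31 at 5 to 20 kb (207 pairs, 12 higher). It was 0.28 at 20 to 50 kb (458 pairs, 8 higher), 0.20 at 50 to 100 kb (640 pairs, 8 higher) and 0.10 at 100 to 200 kb (1220 pairs, 15 higher). At 200 to 500 kb it was 0.20 (3263 pairs) and higher on none of the 18, whose median was 0.12, and at 500 to 1000 kb it was 0.09 (4684 pairs, 7 higher). Windows of 2 Mb accounted for 22.4% of the variance between integrations of chromosome 14, which ranked 3 of 20 chromosomes, with a median of 17.1% in the others. Pairs share integrations, so these are descriptions.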
